A study of Mus musculus with 10 samples.

Results

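In bulk mRNA sequencing of DAOY tumours (10 libraries), 2 of the 4 fish oil libraries, fish oil replicates 2 and 4, stood apart from the other 8 libraries in the levels of many genes. The genes with the clearest gap were taken as a higher set of 100 genes and a lower set of 100 genes, which are 200 of the 33538 gene identifiers in the count table. The members were chosen from these same values. For each of the 12511 genes with a mean of 5 CPM (counts scaled to the same library total) or more, the score for a higher gene was the log2 ratio of the lower of the 2 libraries to the highest of the 8 others, with 0.5 CPM added to each. The score for a lower gene was the log2 ratio of the higher of the 2 libraries to the lowest of the 8 others. The 100 highest and the 100 lowest scores were kept, and 0 genes fell in both sets. The gap between the 2 libraries and the 8 others is therefore a description and carries no test.

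DAOY is an established human medulloblastoma line, and medulloblastoma is a tumour of the cerebellum. Its cells were implanted in the flank of female nude mice, which lack a normal thymus and so accept human grafts. Control mice (3 libraries) ate ordinary chow, a second group (DHA oil, 3 libraries) received docosahexaenoic acid, and the fish oil group (4 libraries) is read here as the arm given docosahexaenoic acid together with eicosapentaenoic acid, all for 30 days. No genetic change beyond the cell line, and no promoter or transgene, is named for any group, and all grafts come from 1 cell line. The labels do not tie a library to a mouse, n counts libraries throughout, so the spread behind the p-values is that between samples and may be technical.

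The omega-3 fatty acids of fish oil are built into membrane lipids, compete with arachidonic acid for the enzymes that make prostaglandins and leukotrienes, and act on nuclear receptors that control lipid genes. A graft under the skin also holds host vessels, connective tissue and immune cells, whose amount can vary from tumour to tumour. In bulk tissue, fewer cells of a type and less RNA per cell cannot be told apart.

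The count table gives human Ensembl identifiers with no gene names, and 0 of them could be matched to a symbol in the reference tables used here, which are of the mouse. Apart from cell cycle phase, given at the end, the members' functions and the markers of the tumour line and of host cells could not be read, the label of the tissue could not be checked against its markers, and no sequence is shown. The first 2 members of each set by score are given by identifier, and the others by counts and ranges.

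Total counts ranged from 6187116 to 10035702 over the libraries, and fish oil replicates 2 and 4, with 9588388 and 8982059, lay inside the range of the others. Fish oil replicate 2 had counts for 21730 identifiers and fish oil replicate 4 for 21297, against 20539 to 21704 in the other libraries. The share of counts in the 10 most abundant genes was 4.83% in fish oil replicate 4, below every other library, and 6.53% in fish oil replicate 2, within the 6.16% to 7.72% of the 8 others. The part of these features in the results was not tested. Across the 12511 genes, which are not independent replicates, fish oil replicates 2 and 4 correlated with each other at r = 0.969. Each correlated with the 8 others at 0.941 to 0.973, and the 8 others among themselves at 0.973 to 0.987. The 2 libraries were thus farther from each other than any pair of the 8 others was.

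In the higher set the 2 libraries stood modestly above all others. The mean of fish oil replicates 2 and 4 was 1.33 to 3.70 times the mean of the 8 others, with a median of 1.5003, and 5 of the 100 members passed 2-fold. The score, which measures the distance to the nearest of the 8 others, ranged from 0.27 to 1.07 on the log2 scale with a median of 0.31. In the lower set the gap was wider. The 8 others exceeded the 2 libraries by 1.54 to 7.82 times, with a median of 2.01, and 53 of 100 members passed 2-fold. The ratio of 7.82 belongs to the 30th member and rests on control replicate 1, without which it was 4.01, and the widest ratio of the other 99 members was 3.82. Its scores ran from -0.95 to -0.48.

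The members are the ends of a long list, with no break at the 100th gene. The last gene inside the higher set had a score of 0.270 and the first outside 0.269. For the lower set these were -0.4842 and -0.4841. Both libraries lay above all 8 others for 1617 of the 12511 genes (12.9%) and below all 8 for 1597 (12.8%), so each set holds 6.18% and 6.26% of such genes. The rule fixed the 100 genes of each set. The 2 libraries were taken for their distance from the others, so the counts of 1617 and 1597 are a description and carry no test.

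**Figure D1:**
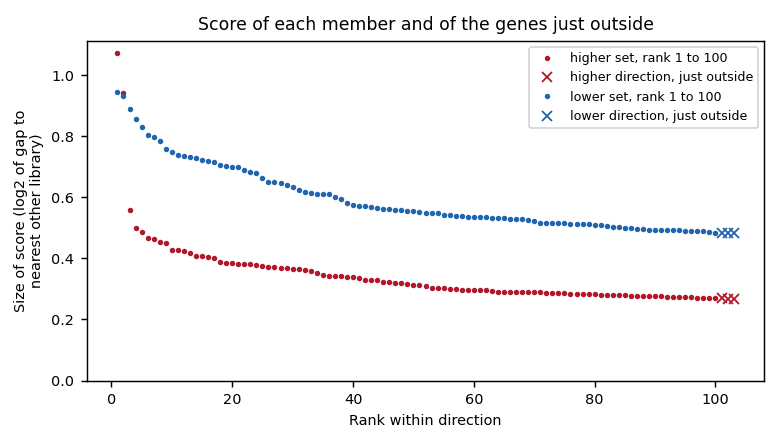
Size of the score (vertical axis, log2 of the gap to the nearest of the 8 other libraries) against rank within each direction (horizontal axis), with dots for the 200 members and crosses for the 3 genes just outside each set. The lower set keeps a wider gap than the higher set from rank 3 on, and the curves run on past rank 100 with no step.

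The leading member of the higher set, ENSG00000275896, was also uneven among the 8 other libraries. It stood at 29.6, 12.03 and 27.8 CPM in control replicates 1 to 3, at 4.98, 19.8 and 28.0 CPM in DHA oil replicates 1 to 3, and at 21.98, 87.7, 18.6 and 62.8 CPM in fish oil replicates 1 to 4. Fish oil replicates 2 and 4 were far above the rest, while fish oil replicates 1 and 3 lay within the range of both other diets. The fish oil mean of 47.8 ± 33.3 CPM (SD, n = 4) was therefore the average of separate pairs of libraries, while the control mean was 23.1 ± 9.67 CPM (SD, n = 3) and that of DHA oil 17.6 ± 11.7 CPM (SD, n = 3).

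ENSG00000007933, the second of the higher set, was low and even in the 8 others. Its levels were 4.79, 7.42 and 6.61 CPM in control, 6.76, 7.37 and 6.78 CPM in DHA oil, and 5.66, 14.7, 5.73 and 14.9 CPM in fish oil replicates 1 to 4. The 2 high fish oil libraries were almost level with each other. These 2 genes stood alone by score, as the next member of the higher set had 0.56. By the ratio of the mean of the 2 libraries to that of the 8 others they did not. This ratio was 2.32 for ENSG00000007933 and 3.41 for the member ranked 4.

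The first member of the lower set, ENSG00000092758, was the reverse picture at a higher level. It stood at 73.4, 89.2 and 91.6 CPM in control, at 103.7, 78.0 and 93.2 CPM in DHA oil, and at 96.2, 37.5, 105.6 and 37.9 CPM in fish oil replicates 1 to 4. The highest of the 10 values, like the 2 lowest, came from a fish oil tumour. ENSG00000101203 followed, at 8.84, 7.04 and 6.61 CPM in control, 9.25, 8.57 and 10.2 CPM in DHA oil, and 9.21, 2.50, 6.78 and 3.23 CPM in fish oil replicates 1 to 4. For both genes fish oil replicates 1 and 3 overlapped the control libraries or exceeded them.

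**Figure D2:**
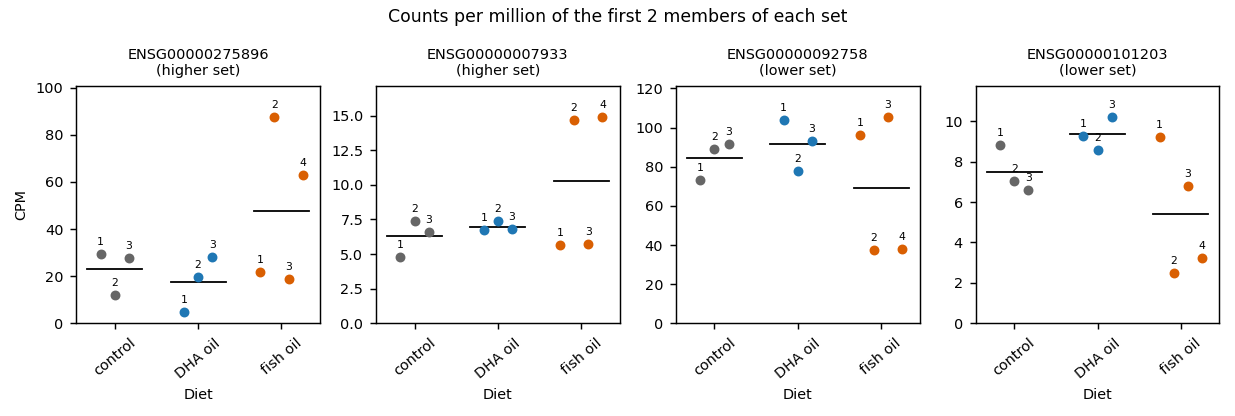
CPM (vertical axes, from 0) of the first 2 members of each set in control, DHA oil and fish oil tumours, with 1 dot per library, its replicate number above it and a line at the group mean. In each panel fish oil replicates 2 and 4 lie on one side of the 8 other libraries, and fish oil replicates 1 and 3 lie with the other diets.

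The rule left out genes with a mean under 5 CPM, so the members could not be rare transcripts. Mean levels were 5.22 to 1187 CPM in the higher set (median 27.4) and 5.72 to 300.3 CPM in the lower set (median 30.3). The median over the 12511 genes was 36.8 CPM. A mean under 10 CPM was found in 16 higher and 15 lower members. The smallest count of any member in any library was 20 reads in the higher set and 13 in the lower set. Counting error alone gave the score a median standard error of 0.12 (log2) in the higher set and 0.15 in the lower set. The median size of the score was 0.31 and 0.55. The score was larger than 2 of its own counting standard errors in 70 members of the higher set and 89 of the lower set. In the remaining members it lay within that distance. The gap exceeded the whole range of the 8 others in 35 members of the higher set and in 55 of the lower set. The rule chose the members for the size of this gap. The comparisons with counting error and with the range of the 8 others are therefore a description and carry no test.

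Summed over its 100 genes, the higher set took 0.821% of the counts of fish oil replicate 2 and 0.904% of fish oil replicate 4, against 0.547% to 0.594% in the 8 others. The lower set took 0.270% and 0.238%, against 0.444% to 0.569%. Fish oil replicate 4 was the more extreme of the 2 in both directions. It exceeded fish oil replicate 2 in 76 of 100 genes of the higher set and was below it in 71 of 100 of the lower set, whereas over the 12511 genes it was the higher in 48.8%. The median log2 ratio of replicate 4 to replicate 2 was 0.076 in the higher set and -0.13 in the lower set. Differences of opposite sign offset each other in these medians. Single members ran from -0.93 to 0.53 in the higher set and from -0.80 to 0.63 in the lower set. The rule scored whichever of the 2 libraries lay nearer to the 8 others, which favours genes on which the 2 are alike.

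By their medians over the set, the 8 other libraries were nearly level in the higher set. The rule scored against the highest of the 8, so it can favour genes that are level among them. Each library's median deviation from the mean of the 8, on the log2(CPM + 0.5) scale, lay between -0.052 and 0.069, beside 0.51 in fish oil replicate 2 and 0.62 in fish oil replicate 4. Among the 8, single members deviated from -1.77 in DHA oil replicate 1 to 0.75 in control replicate 3. The library that came nearest to fish oil replicates 2 and 4, whose value the rule used, changed from gene to gene. Each of the 8 was the highest of the others for 10 to 17 of the 100 genes. The lowest of the 8 was less evenly spread, and was fish oil replicate 1 in 28 genes, control replicate 1 in 6 and fish oil replicate 3 in 5. Pairwise correlation of these genes over the 8 libraries averaged 0.050, against 0.011 over all 12511 genes.

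The lower set also varied together among the 8 other libraries, on which the rule used only the minimum. DHA oil replicate 3 had a median deviation of 0.20 and fish oil replicate 1 of 0.14, while control replicate 2 had -0.15, control replicate 3 -0.078, DHA oil replicate 1 -0.068, fish oil replicate 3 -0.050, control replicate 1 -0.047 and DHA oil replicate 2 0.020. DHA oil replicate 3 was the highest of the 8 in 40 genes and fish oil replicate 1 in 31, and control replicate 2 was the lowest in 38. Fish oil replicates 2 and 4 lay well below all of these, at -0.87 and -1.06. The mean pairwise correlation of lower members over the 8 libraries was 0.32, with 79.1% of the pairs positive, and these points share their libraries and depth. Between a higher and a lower member it averaged -0.047.

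**Figure D3:**
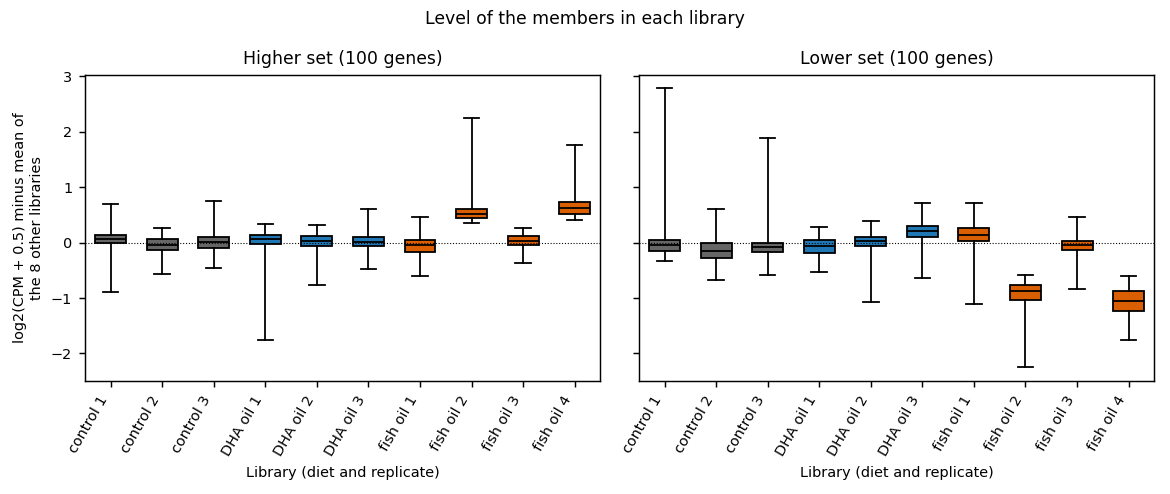
Deviation of each member from its mean in the 8 other libraries (vertical axis, log2(CPM + 0.5)) in each of the 10 libraries, for the higher set (left) and the lower set (right). Boxes span the quartiles with a line at the median and whiskers reach the extremes; fish oil replicates 2 and 4 are apart by construction, and in the lower set DHA oil replicate 3 and fish oil replicate 1 sit above the other 6 libraries.

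Diet was then compared by edgeR's quasi-likelihood test over all genes that passed a filter on low counts, 16013 in all, which include all 200 members. DHA oil against control is the comparison in which neither of the 2 libraries that chose the members is compared. edgeR called 0 of 100 higher and 0 of 100 lower members at an adjusted p under 0.05, against 0 of the 16013 genes (0%). DESeq2 called 0 members, against 11 of the 16013 genes, all 11 lower in DHA oil. At an unadjusted p under 0.05 there were 0 members of the higher set in either direction, and in the lower set 0 that were higher and 2 that were lower in DHA oil, against 1.02% higher and 1.72% lower over all genes. The spread of each gene in this fit includes fish oil replicates 2 and 4, which the rule took for their distance from the others. The choice of members can therefore lower these counts, and by how much was not tested. The shares over all genes were also higher in the next fit, which leaves out the fish oil libraries. In a fit of only the control and DHA oil libraries, edgeR called 0 members, and at an unadjusted p under 0.05 it gave 1 member of the higher set higher and 3 lower, and 7 of the lower set higher and 4 lower, where all genes gave 2.04% higher and 3.32% lower.

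The higher set had a median log2 fold change of -0.015 in DHA oil against control, with 46 of 100 positive, beside 0.0032 and 50.8% over all genes. All 3 DHA oil libraries exceeded all 3 controls for 3 of its members and lay below them for 3, beside 5.91% and 4.27% of the 12511 genes. The lower set leaned upward in DHA oil, with a median of 0.14 and 84 of 100 positive. The DHA oil libraries all exceeded the controls in 15 of its members and lay below them in 4. This lean was smaller without DHA oil replicate 3, where the median was 0.045 with 64 positive. Without any other single library the median was 0.12 to 0.19. The source of the lean was not tested. No member was called in that direction in the fit of all 10 libraries or in that of control and DHA oil alone. The members vary together, so neither the 84 positive members nor the 7 at a small p are counts of independent genes.

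The 2 lower members at an unadjusted p under 0.05, picked out after their values were seen, had lower values with both oils. Their low values in fish oil replicates 2 and 4 are what the rule selected. The first, 30th in the set, stood at 59.8, 9.34 and 15.1 CPM in control, 6.29, 3.69 and 6.26 CPM in DHA oil, and 3.56, 1.36, 4.43 and 2.12 CPM in fish oil replicates 1 to 4. All 7 oil libraries were below all 3 controls, and control replicate 1 was far above the others. The gene averaged 3.96 CPM over the 7 oil libraries and so passed the limit of 5 CPM only through the controls. Its log2 fold change was -2.40 ± 0.55 (SE) for DHA oil, with an adjusted p of 0.476 in edgeR, and -3.35 ± 0.54 for fish oil, with an adjusted p of 0.0566.

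The second, 28th in the set, stood at 17.4, 24.4 and 60.2 CPM in control, 10.9, 13.7 and 10.1 CPM in DHA oil, and 11.3, 5.74, 9.25 and 4.56 CPM in fish oil replicates 1 to 4. Here control replicate 3 was the high one, and the oils were again below all controls. Its log2 fold change was -1.58 ± 0.39 (SE) for DHA oil (adjusted p = 0.587 in edgeR) and -2.19 ± 0.38 for fish oil (adjusted p = 0.0571). Fish oil replicates 1 and 3 were below all controls for both genes.

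The comparisons of fish oil with either other diet are given as values only, because 2 of the 4 fish oil libraries chose the members. edgeR called 0 members in either comparison, beside 1 of all genes (0.00624%) against control and 0 (0%) against DHA oil. At an unadjusted p under 0.05 the higher set had 13 members higher and 0 lower against control, where all genes gave 1.64% and 1.84%, and 17 higher and 0 lower against DHA oil, where all genes gave 2.70% and 2.14%. The lower set had 11 and 29 members lower and 0 higher. DESeq2 called 2 lower members in fish oil against control, beside 20 of the 16013 genes. It called 0 members in fish oil against DHA oil, beside 1 of the 16013 genes. All 4 fish oil libraries exceeded all 3 controls in 3 higher members and lay below them in 5 lower members, where 2.27% and 1.21% of the 12511 genes did so. Against DHA oil these were 6 and 7 members, where 2.86% and 1.68% of the genes did so. The median log2 fold change of the higher set was 0.30 against either diet, and that of the lower set was -0.29 against control and -0.44 against DHA oil.

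The rule scored members against fish oil replicates 1 and 3 too, so their values are likewise a description. With fish oil replicates 2 and 4 left out, the higher set had a median log2 fold change of -0.075 against control and -0.043 against DHA oil, and the lower set of 0.13 and 0.019, the last with quartiles of -0.11 and 0.090 and 53 of 100 positive. edgeR called 0 members. At an unadjusted p under 0.05 against control there were 0 members of the higher set, and 5 of the lower set higher and 2 lower, where all genes gave 1.88% higher and 1.84% lower. Against DHA oil there were 0 higher and 1 lower in each set, where all genes gave 1.83% in either direction. The fit then has 2 fish oil libraries, of which fish oil replicate 1 has the smallest total count of all 10. DHA oil against control had medians of -0.015 and 0.14 in that fit, with 0 members called and, at an unadjusted p under 0.05, 6 lower-set members higher and 4 lower and 1 higher-set member higher and 3 lower (all genes 1.96% and 3.33%).

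**Figure D4:**
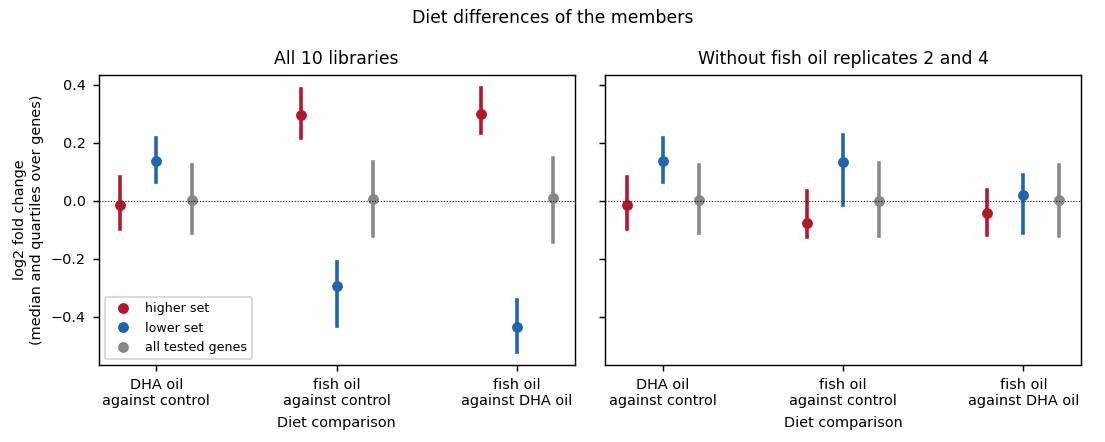
Log2 fold change (vertical axis) of the higher set, the lower set and all tested genes in each diet comparison, with the median as a dot and the quartiles over genes as a line, from all 10 libraries (left) and without fish oil replicates 2 and 4 (right). The fish oil medians of both sets lie far from 0 on the left, where the 2 libraries that chose the members enter. On the right they lie between -0.075 and 0.13. The DHA oil medians, -0.015 and 0.14 on the left, barely move, as both panels compare the same control and DHA oil libraries.

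Cell cycle genes could be placed by identifier, from published human marker pairs for the phases of the cycle. For each phase the 100 genes that come first in the most marker pairs were taken. Of these, 95 for G1, 94 for S and 96 for G2/M were among the 12511. The higher set held 3 G1 genes, 0 S genes and 1 G2/M gene, and the lower set held 0, 1 and 0, so the members are few of them. Both libraries lay above all 8 others for 26 of the G1 genes (27.4%) and below for 4 (4.21%). These were 19 (19.8%) and 5 (5.21%) for G2/M, and 7 (7.45%) and 13 (13.8%) for S. All genes gave 12.9% and 12.8%. Genes of a phase can vary together, and the 2 libraries were taken for their distance from the others, so these counts carry no test. The median deviation of the G1 genes was 0.14 in fish oil replicate 2 and 0.23 in fish oil replicate 4, against -0.052 to 0.063 in the 8 others. For G2/M it was 0.13 and 0.19, against -0.076 to 0.11, and for S 0.0021 and -0.15, against -0.052 to 0.13. Their part in the gap of the members was not tested.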

How the data were processed

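The values deposited by the authors are raw counts of reads per human gene identifier, whole numbers whose totals differ between libraries. STAR, HTSeq 0.9.0 and GRCh38 are named in the submitters' processing notes. Not given in the sources used here are the annotation release, the strand setting, how reads that fit several genes were counted, and whether mouse reads were removed, so counts of overlapping or near-identical genes are uncertain. The libraries came from a stranded poly(A) kit and were read from a single end, per the labels' protocols.

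CPM are counts over the column total. Members were chosen as described in the report. The members and lists were chosen with earlier results of these data known. A rule gave at most 2 identifiers per set, the first by score, where no names could be matched. The 46 gene lists (1454 symbols) could not be matched and were not used.

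Genes were filtered with filterByExpr (minimum count 10), scaled by TMM and analysed by the quasi-likelihood F test of edgeR 4.0.16 (R 4.3.3). Diet was the 1 factor in a fit of the 10 libraries, and p-values were adjusted over all genes by Benjamini-Hochberg (threshold 0.05). The SE of a log2 fold change is its size over the square root of F. DESeq2 1.42.0 was an alternative, and the marker pairs came with scran 1.30.0. No batch is given in the labels.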

Additional observations from a re-analysis of the deposited data

How the results depend on the processing

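Membership depended on both libraries and on the level limit. With a mean of 20 CPM or more, 59 higher and 62 lower members were chosen again, and 79 to 92 were under 1 CPM, a pseudocount of 2 CPM, TMM or DESeq2 scaling. Leaving out 1 library kept 16 to 93 higher and 26 to 98 lower members, with the lowest values without fish oil replicate 2 (16 and 26) or 4 (22 and 54), 64 higher without DHA oil replicate 1 and 66 lower without control replicate 2. For DHA oil against control, genes called numbered 57 with no filter (2 of them lower members), 11 by DESeq2, 1 with the replicate block and 0 to 5 without 1 library (5 without control replicate 2 and 2 without DHA oil replicate 1). Its set medians stayed between -0.022 and 0.0049 (higher) and between 0.045 and 0.19 (lower) without 1 library. For fish oil against control the 1 gene called became 56 with no filter (1 higher and 2 lower members), 20 by DESeq2 (2 lower members), 7 with only these groups, 0 with the replicate block, 0 without fish oil replicates 2 and 4, and 0 to 22 without 1 library, where 0 to 2 lower members were called (2 without control replicate 2, 1 without control replicate 1 or 3). For fish oil against DHA oil the counts were 14 with no filter (1 higher member), 1 by DESeq2 and 0 to 1 without 1 library (1 without DHA oil replicate 1). Without both fish oil replicates 2 and 4 the medians were -0.075 and 0.13 against control and -0.043 and 0.019 against DHA oil, and without 1 library they stayed between 0.16 and 0.42 and between -0.52 and -0.13 against control, and between 0.17 and 0.40 and between -0.65 and -0.27 against DHA oil. The cause of these changes was not tested. Between libraries of the same replicate number, r of deviations ran from -0.25 to 0.31. It was over 0.1 in 3 of 9 pairs, which are the 3 pairs of replicate number 3. Pairs of unlike number were not compared, so these values cannot show whether replicate numbers pair the samples. Fish oil replicate 4 has no partner, so the replicate block sets it aside. The block called 0 members and gave medians of 0.14 and -0.17 for fish oil against control and of 0.15 and -0.30 against DHA oil.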
